A study of Homo sapiens with 2 samples.

Results

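The genes described here encode the mitochondrial protein import machinery (symbols starting with TOMM and TIMM) and the carriers of the inner mitochondrial membrane (symbols starting with SLC25A). Each listed transcript was assigned to a gene symbol, values were summed per gene, and every symbol with one of these beginnings was taken, without readthrough symbols. This gave 65 of the 12918 genes in the table, 25 of them TIMM or TOMM genes and 40 SLC25A genes. The study sequenced RNA of MDA-MB-231, a human line grown from a triple-negative breast cancer. A culture received the Smart Silencer against the antisense transcript THAP7-AS1, a product that combines siRNA with antisense oligonucleotides, and the other received the negative control si-NC. Both were grown in serum-containing L15 medium and harvested after 48 h, and each gave 1 library. The value column that does not name si-NC was taken as the silencer library by elimination, and all directions depend on that. With 1 library per group no difference between these libraries has a replicate check, so no test was possible and the statements below describe these libraries.

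The level of a gene is given in FPKM, its fragments scaled by transcript length and library size. About 8310000 fragments lay on the listed transcripts in the silencer library and about 7830000 in the si-NC library. No transcript of THAP7-AS1 was among those listed, so the target itself was not followed. Of the markers of this line, the mesenchymal genes VIM, CD44 and AXL were high, between 114 FPKM and 373 FPKM in the silencer library and between 152 FPKM and 344 FPKM in the si-NC library. The oestrogen receptor gene ESR1 was listed at 0 in both, and the progesterone receptor gene PGR was not among the listed transcripts. The epithelial gene CDH1 was near 0, but EPCAM was not, at 12.8 FPKM in the silencer library and 11.3 FPKM in the si-NC library. ERBB2, the receptor gene not amplified in triple-negative tumours, had 17.4 FPKM in the silencer library and 4.65 FPKM in the si-NC library. The leukocyte and endothelial genes PTPRC, CD3E and PECAM1 were not among the listed transcripts. The myeloid gene LYZ had 2.98 FPKM in the silencer library and 2.39 FPKM in the si-NC library. This rests on about 48 fragments with the silencer and 37 with si-NC. Genes typical of liver were also listed: ALB had 17.7 FPKM in the silencer library and 17.0 FPKM in the si-NC library. APOA2 had 20.5 FPKM with the silencer and 19.4 FPKM with si-NC. The source of these liver transcripts was not tested.

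Nearly all mitochondrial proteins are made in the cytosol and imported. The TOM complex of the outer membrane recognises and admits them. The TIM23 complex then moves proteins with a cleavable presequence into the matrix or inner membrane. The small TIM chaperones and the TIM22 complex insert proteins with several membrane spans, among them the SLC25 carriers themselves. The carriers exchange nucleotides, phosphate, carboxylates, amino acids, cofactors and metal ions across the inner membrane, and so link mitochondrial and cytosolic metabolism.

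Of the 65 genes, 61 reached 1 FPKM in at least 1 library. Most stood at similar levels in both libraries. The log2 ratio was taken as silencer over si-NC after adding 1 to each FPKM value, which understates differences of low genes. At 1.5-fold or more, 4 genes were higher in the silencer library (TOMM6, SLC25A44, TOMM22 and SLC25A46), where 9.82% of all 11046 genes past the same filter were higher by as much. Lower at 1.5-fold or more were 5 genes (SLC25A1, TIMM23B, SLC25A17, SLC25A32 and TOMM40L), against 8.91% of all genes. The other 52 genes (85.2%) lay within 1.5-fold, compared with 81.3% of all genes, so the shares beyond it were near or below the background. At 2-fold or more, TOMM6 and SLC25A44 were higher and SLC25A1 and TIMM23B lower, with 2.37% and 2.49% of all genes past that fold in each direction. A difference in bulk RNA cannot tell fewer cells with a transcript from less of it per cell.

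**Figure D1:**
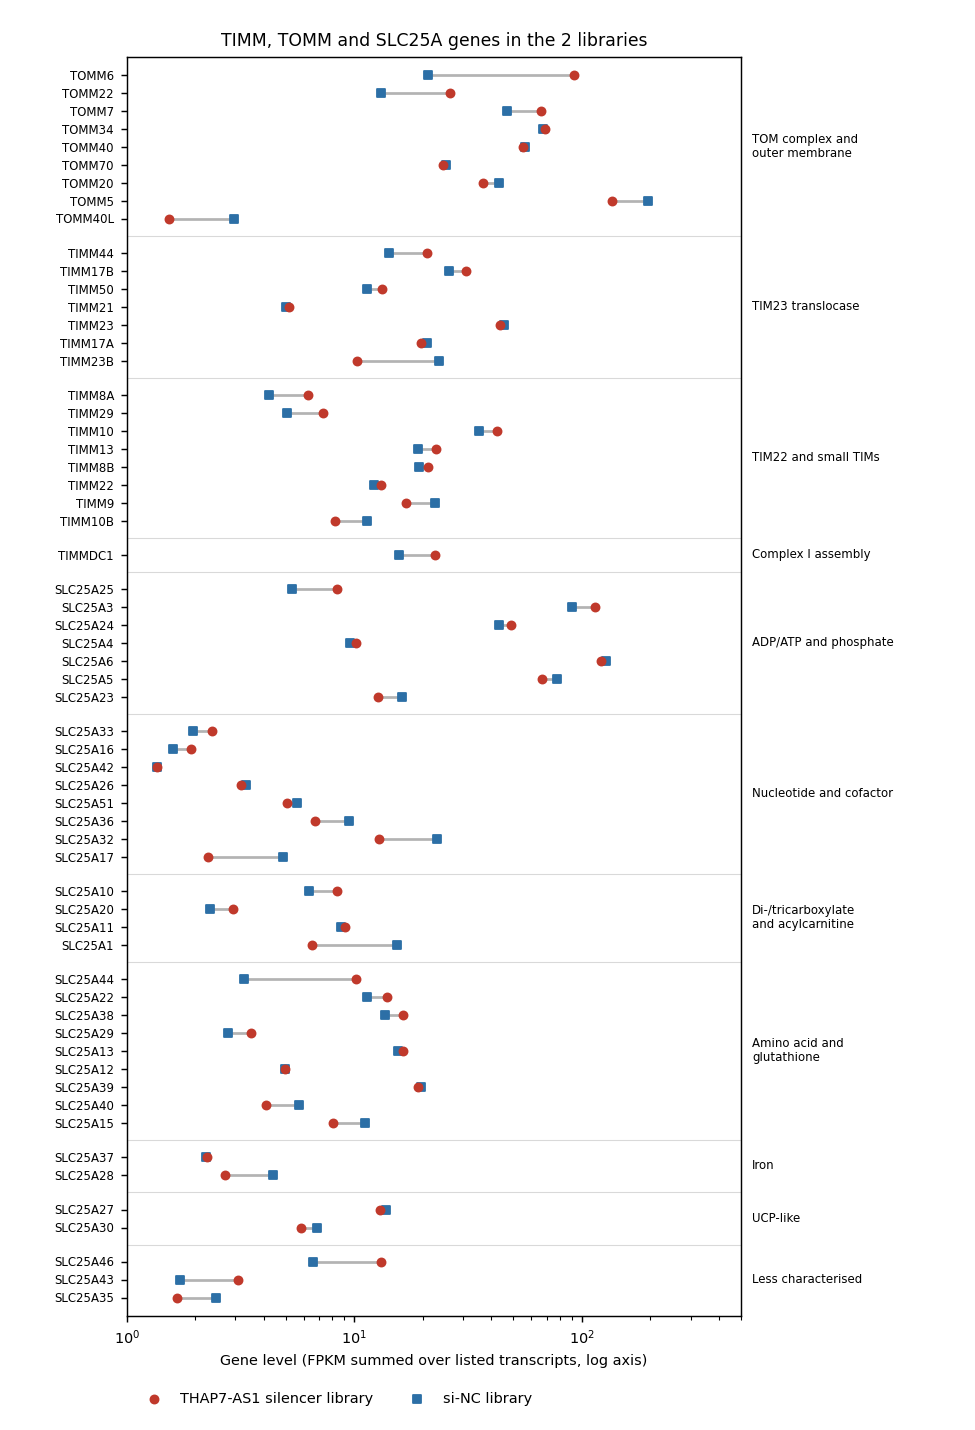
Level of 60 of the 61 genes past the filter (horizontal axis, FPKM on a log scale) in the THAP7-AS1 silencer library (red circles) and the si-NC library (blue squares), grouped by role. Most pairs of points lie close together, and TOMM6, at 92.2 FPKM in the silencer library and 21.1 FPKM in the si-NC library, has the widest gap.

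The median log2 ratio of the 61 genes was 0.03, beside 0.00 for all genes past the filter. It was 0.10 over the 25 TIMM and TOMM genes and 0.00 over the 36 SLC25A genes past the filter. Ratios above 0 were found in 34 genes and below 0 in 27, beside 5568 above and 5478 below among all genes past the filter. The middle of the distribution ran from -0.22 to 0.25 between the quartiles, against -0.27 to 0.30 for all genes. The share beyond 1.5-fold was 5.88% (1 of 17) for members with a mean level of at least 20 FPKM, where 15.1% of all genes at that level lay beyond it. It was 20.7% (6 of 29) for members between 5 and 20 FPKM, beside 18.8% of all genes, and 13.3% (2 of 15) for those between 1 and 5 FPKM, beside 20.6% of all genes. All 65 genes made up 0.468% of total FPKM in the silencer library and 0.447% in the si-NC library.

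**Figure D2:**
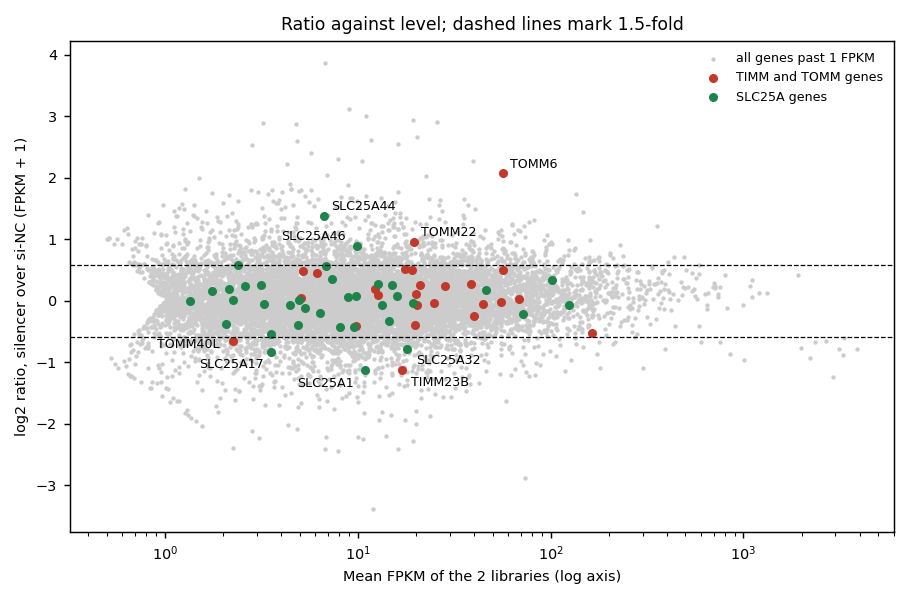
Log2 ratio of silencer over si-NC (vertical axis, FPKM + 1) against mean FPKM of the 2 libraries (log axis) for all 11046 genes past the filter (grey), TIMM and TOMM genes (red) and SLC25A genes (green). The 9 labelled genes lie outside the dashed lines at 1.5-fold, 4 above and 5 below.

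The TOM complex held the member with the largest difference. TOMM6, a small subunit that stabilises the assembled complex, had 92.2 FPKM in the silencer library and 21.1 FPKM in the si-NC library, a log2 ratio of 2.07 that ranked 18 from the top among all 11046 genes. The gene lies on chromosome 6 from 41787662 to 41789898 (GRCh38, plus strand), and 1 of its 2 annotated coding transcripts was listed. All 521 windows of 75 bases in that transcript (100%) also occur in a transcript of AL365205.1, an annotated coding gene on the same strand that overlaps it and has no value among the listed transcripts. The part of reads shared with that gene in the TOMM6 values was not tested. USP49, which overlaps it on the opposite strand, stood at 2.89 FPKM in the silencer library and 3.22 FPKM in the si-NC library.

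TOMM22, the central receptor that holds the complex together, had 26.2 FPKM in the silencer library and 13.0 FPKM in the si-NC library (log2 0.96). TOMM7, another small subunit, stood at 66.3 FPKM with the silencer and 46.8 FPKM with si-NC (0.50). Both were higher in the silencer library, TOMM7 by less than 1.5-fold. The third small subunit, TOMM5, was the most abundant gene of the family and lay the other way, at 135 FPKM in the silencer library and 194 FPKM in the si-NC library (-0.52). Its leading transcript shared 65.9% of its windows with a readthrough gene, AL138752.2. The small subunits thus did not share a direction.

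The channel subunit gene TOMM40 was close in level, at 55.0 FPKM in the silencer library and 56.0 FPKM in the si-NC library. So was TOMM70, the receptor for carrier precursors handed over by cytosolic chaperones, at 24.6 FPKM with the silencer and 25.4 FPKM with si-NC. TOMM20, the presequence receptor, had 36.6 FPKM in the silencer library and 43.4 FPKM in the si-NC library (-0.24). TOMM34, a cytosolic co-chaperone of import, was level at 69.1 FPKM with the silencer and 67.5 FPKM with si-NC. TOMM40L, a low paralogue of the channel gene, had 1.53 FPKM in the silencer library and 2.97 FPKM in the si-NC library (-0.65), which rests on about 48 fragments with the silencer and 86 with si-NC. Over the 9 listed genes of this group the median log2 ratio was -0.03, with 2 genes higher and 1 lower at 1.5-fold. Beyond 1.5-fold lay 33.3% of this small group, beside 18.7% of all genes past the filter.

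Genes of import and respiration often carry sites for the nuclear respiratory factor NRF1 and for ETS factors such as GABP in their promoters. Promoters were available for 57 of the 65 genes (RefSeq, GRCh38.p14). In the 250 bases before the gene start that RefSeq gives, the ETS core CCGGAAG on either strand was found in 17 of these 57 (29.8%), against 8.82% of all 27305 promoters and 11.8% of the 15843 promoters of coding genes. The NRF1 core, GCGCA followed by any base and GCGC, on either strand was in 7 of 57 (12.3%), against 5.53% of all and 7.65% of coding promoters. The letters of the cores do not contain each other, and TOMM20 and TIMM29 held both. Shown first is TOMM20 as the promoter with both cores, at chr1:235128838-235129087 (- strand), then TOMM6 and SLC25A1 as the genes with the highest and the lowest ratio, at chr6:41787444-41787693 (+ strand) and chr22:19178737-19178986 (- strand). The RefSeq starts are not those of GENCODE, and these windows reach 99, 32 and 94 bases into the genes TOMM20, TOMM6 and SLC25A1 as GENCODE places them. Capitals mark the cores.
TOMM20: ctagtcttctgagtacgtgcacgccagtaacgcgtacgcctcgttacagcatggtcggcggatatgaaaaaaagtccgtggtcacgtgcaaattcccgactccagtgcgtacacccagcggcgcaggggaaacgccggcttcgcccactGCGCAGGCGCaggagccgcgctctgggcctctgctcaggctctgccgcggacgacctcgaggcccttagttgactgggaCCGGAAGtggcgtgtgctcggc
TOMM6: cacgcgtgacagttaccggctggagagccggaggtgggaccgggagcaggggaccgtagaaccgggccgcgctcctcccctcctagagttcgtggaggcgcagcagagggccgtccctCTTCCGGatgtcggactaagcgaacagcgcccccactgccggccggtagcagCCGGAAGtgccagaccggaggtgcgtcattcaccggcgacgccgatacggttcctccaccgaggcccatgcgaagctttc
SLC25A1: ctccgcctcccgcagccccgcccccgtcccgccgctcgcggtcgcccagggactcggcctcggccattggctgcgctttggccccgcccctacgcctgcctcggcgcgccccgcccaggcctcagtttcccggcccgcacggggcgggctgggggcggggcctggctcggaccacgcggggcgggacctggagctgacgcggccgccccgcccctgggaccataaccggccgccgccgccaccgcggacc
The TOMM6 window held 2 ETS cores and the SLC25A1 window held neither core. The 16 genes past the filter with an ETS core had a median log2 ratio of 0.21, with a range from -1.12 to 2.07. The 37 genes without it had a median of 0.03 and ranged from -1.13 to 1.38, so the ranges overlapped. With an NRF1 core the median was 0.06 over 7 genes and without it 0.06 over 46. A match of letters is a description of the window and not evidence of binding.

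In the TIM23 presequence translocase, 6 of 7 genes (85.7%) lay within 1.5-fold, beside 81.3% of all genes, and 1 was lower. The channel subunit gene TIMM23 had 43.7 FPKM in the silencer library and 45.4 FPKM in the si-NC library (-0.05). Its partner TIMM17A had 19.6 FPKM in the silencer library and 20.8 FPKM in the si-NC library, and the paralogue TIMM17B had 30.9 FPKM with the silencer and 26.1 FPKM with si-NC. TIMM44, which tethers the import motor on the matrix side, had the highest ratio of the group, with 20.8 FPKM in the silencer library and 14.2 FPKM in the si-NC library (0.52). The presequence receptor gene TIMM50 had 13.2 FPKM with the silencer and 11.4 FPKM with si-NC, and TIMM21, which links the complex to TOM, had 5.19 FPKM with the silencer and 5.01 FPKM with si-NC. TIMM23 and TIMM17A thus stood at nearly the same level in both libraries, and TIMM17B was higher in the silencer library by less than 1.5-fold. The log2 ratio of 0.23 for TIMM17B was 0.02 from its most abundant transcript and -0.003 after correction for GC content and length.

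TIMM23B, a copy of TIMM23 on the same chromosome (10, from 49942033 to 49974850, plus strand, GRCh38), had 10.3 FPKM in the silencer library and 23.5 FPKM in the si-NC library (-1.12). The sum hides opposite transcripts. The transcript of 1142 bases had 4.64 FPKM in the silencer library and 22.7 FPKM in the si-NC library, while that of 2623 bases had 5.61 FPKM with the silencer and 0.866 FPKM with si-NC. The shorter is annotated as coding and the longer as a target of nonsense-mediated decay. Counted as fragments, where the longer transcript weighs more, the log2 ratio of the gene was -0.43 and no longer reached 1.5-fold. The promoters of the pair, shown to let the copies be compared, lie at chr10:45972239-45972488 (+ strand) for TIMM23 and chr10:49941803-49942052 (+ strand) for TIMM23B, with the ETS core in capitals. They reach 40 bases into TIMM23 and 20 bases into TIMM23B as GENCODE places them.
TIMM23: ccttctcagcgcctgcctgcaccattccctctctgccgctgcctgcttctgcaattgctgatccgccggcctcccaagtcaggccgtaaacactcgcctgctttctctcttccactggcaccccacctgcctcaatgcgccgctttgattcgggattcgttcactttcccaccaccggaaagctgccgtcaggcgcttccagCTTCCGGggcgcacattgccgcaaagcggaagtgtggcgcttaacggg
TIMM23B: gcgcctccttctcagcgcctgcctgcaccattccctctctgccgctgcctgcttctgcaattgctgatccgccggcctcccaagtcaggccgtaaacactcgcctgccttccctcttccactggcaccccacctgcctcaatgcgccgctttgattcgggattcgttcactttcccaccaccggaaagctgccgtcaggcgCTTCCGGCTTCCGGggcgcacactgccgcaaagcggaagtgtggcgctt
An alignment of these promoter windows had 240 identical bases of 250 (96%). Of the 75-base windows of the shorter TIMM23B transcript, 9.83% occur unchanged in the TIMM23 transcript, and reads from those stretches cannot be told apart by sequence. The overlapping gene PARG on the opposite strand was level, at 4.02 FPKM in the silencer library and 4.42 FPKM in the si-NC library.

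All 8 genes of the TIM22 carrier translocase and the small TIM chaperones lay within 1.5-fold, with a median log2 ratio of 0.18 and 6 of 8 above 0. Of all 11046 genes past the filter, 81.3% lay within 1.5-fold and 5568 were above 0. TIMM22, the insertion channel, had 13.2 FPKM in the silencer library and 12.3 FPKM in the si-NC library, and its partner TIMM29 had 7.29 FPKM with the silencer and 5.07 FPKM with si-NC (0.45). The chaperones work as rings of paired subunits. TIMM10 had 42.5 FPKM in the silencer library and 35.2 FPKM in the si-NC library (0.27), whereas its ring partner TIMM9 had 16.9 FPKM with the silencer and 22.6 FPKM with si-NC (-0.40). For the other ring, TIMM8A had 6.24 FPKM in the silencer library and 4.21 FPKM in the si-NC library (0.47), the highest ratio of this group, and TIMM13 had 22.9 FPKM with the silencer and 19.1 FPKM with si-NC (0.25). TIMM8B stood at 21.0 FPKM with the silencer and 19.3 FPKM with si-NC. NKAPD1 and SDHD overlap TIMM8B on the opposite strand, with log2 ratios of 0.71 and -0.79. Their part in the TIMM8B values was not tested. TIMM10B, which docks the TIMM9 and TIMM10 ring on the translocase, had the lowest ratio of this group (-0.42). It had 8.25 FPKM in the silencer library and 11.4 FPKM in the si-NC library. In these sums, partners of 1 ring differed in direction for TIMM9 and TIMM10 and not for TIMM8A and TIMM13. After correction for GC content and length, the log2 ratio was 0.02 for TIMM13, 0.14 for TIMM10 and 0.47 for TIMM8A. In TIMM9 the leading transcript differed between the libraries. TIMMDC1 carries a TIMM symbol but is an assembly factor of respiratory complex I, and had 22.7 FPKM in the silencer library and 15.7 FPKM in the si-NC library (0.50).

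**Figure D3:**
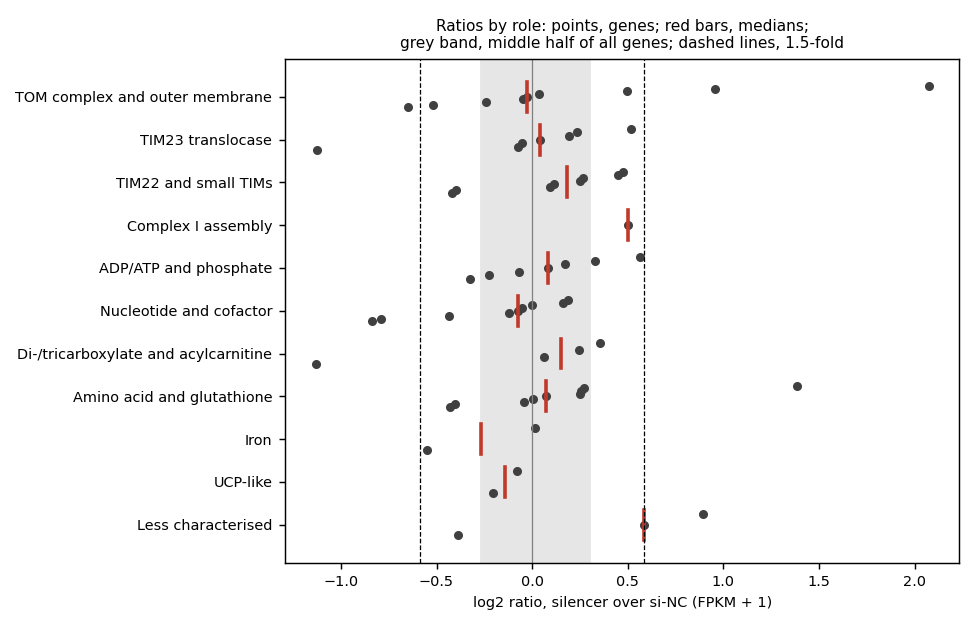
Log2 ratio of silencer over si-NC (horizontal axis, FPKM + 1) for the 61 genes past the filter, by role. Red bars are group medians, the grey band spans the quartiles of all 11046 genes (-0.27 to 0.30), and dashed lines mark 1.5-fold. All points of the TIM22 and ADP/ATP groups lie between the dashed lines, as do 81.3% of all genes. In the amino acid group only SLC25A44 lies outside them.

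The most abundant carriers supply the ATP synthase and export its product, and none of them reached 1.5-fold. SLC25A6, an ADP/ATP carrier, had 121 FPKM in the silencer library and 127 FPKM in the si-NC library (-0.07), and SLC25A3, the phosphate carrier, had 114 FPKM with the silencer and 90.5 FPKM with si-NC (0.33). The ADP/ATP carrier SLC25A5 had 66.4 FPKM in the silencer library and 77.8 FPKM in the si-NC library (-0.22), and the form typical of heart and muscle, SLC25A4, had 10.1 FPKM with the silencer and 9.54 FPKM with si-NC. Summed, these 3 ADP/ATP carriers had 198 FPKM in the silencer library and 215 FPKM in the si-NC library. The calcium-regulated ATP-Mg/phosphate carriers differed among themselves. SLC25A24 had 49.0 FPKM in the silencer library and 43.3 FPKM in the si-NC library (0.17), SLC25A25 had 8.37 FPKM with the silencer and 5.33 FPKM with si-NC (0.57), and SLC25A23 had 12.7 FPKM with the silencer and 16.2 FPKM with si-NC (-0.33). SLC25A25 lay just short of 1.5-fold, and its most abundant transcript alone gave the opposite sign (-0.62).

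Nucleotide and cofactor carriers had a median log2 ratio of -0.07 over 9 genes, with 2 lower and none higher at 1.5-fold. Their share beyond 1.5-fold was 22.2%, near the 18.7% of all genes past the filter, of which 8.91% were lower by as much. SLC25A32, which brings folate and FAD into mitochondria, had 12.9 FPKM in the silencer library and 23.02 FPKM in the si-NC library (-0.79), on about 442 fragments with the silencer and 730 with si-NC. Its transcript shared 96.6% of its windows with transcripts of other genes that overlap it, mostly the readthrough gene AC012213.5. DCAF13, which overlaps it on the opposite strand, stood at 15.2 FPKM in the silencer library and 9.83 FPKM in the si-NC library (0.58). The part of overlapping reads in the SLC25A32 values was not tested.

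SLC25A17, a cofactor carrier of peroxisomes and not of mitochondria, had 2.27 FPKM in the silencer library and 4.86 FPKM in the si-NC library (-0.84). All 3 of its listed transcripts were lower in the silencer library. The pyrimidine nucleotide carrier SLC25A36 had 6.73 FPKM in the silencer library and 9.46 FPKM in the si-NC library (-0.44), while its relative SLC25A33 had 2.36 FPKM with the silencer and 1.95 FPKM with si-NC (0.19). Others of this group were close: SLC25A16 and SLC25A42, linked to coenzyme A, SLC25A26 for S-adenosylmethionine and SLC25A51 for NAD had ratios from -0.12 to 0.16. For SLC25A16 the sum gave 0.16, but its transcript of 6529 bases alone gave -0.30. Its fragments were about 89 with the silencer and 114 with si-NC. Lower values were thus found for some cofactor carriers and not for others.

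Among the carboxylate carriers, SLC25A1 stood apart by size. It exports citrate, the source of cytosolic acetyl-CoA for lipid synthesis, and had 6.49 FPKM in the silencer library and 15.4 FPKM in the si-NC library (-1.13), the lowest ratio of all members and rank 194 from the bottom among 11046 genes. Both of its annotated coding transcripts were listed and both were lower: that of 1648 bases had 3.57 FPKM with the silencer and 7.32 FPKM with si-NC, and that of 1514 bases had 2.92 FPKM with the silencer and 8.10 FPKM with si-NC. The gene lies on chromosome 22 from 19175575 to 19178830 (GRCh38, minus strand), no annotated gene overlaps it, and no 75-base window of its leading transcript occurs in a transcript of another gene. The oxoglutarate carrier SLC25A11, part of the malate-aspartate shuttle, was level at 9.14 FPKM in the silencer library and 8.70 FPKM in the si-NC library. The dicarboxylate carrier SLC25A10 had 8.36 FPKM with the silencer and 6.32 FPKM with si-NC (0.36), and the carnitine-acylcarnitine carrier SLC25A20 had 2.92 FPKM with the silencer and 2.31 FPKM with si-NC (0.24). The most abundant SLC25A10 transcript shared 54.3% of its windows with AC139530.2, an overlapping coding gene on the same strand listed at 0 in both libraries. After correction for GC content and length the log2 ratio of SLC25A10 was 0.10. The part of shared reads in its values was not tested.

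Among the amino acid and glutathione carriers, 8 of 9 genes (88.9%) lay within 1.5-fold, beside 81.3% of all genes. The exception was SLC25A44, a carrier of branched-chain amino acids, with 10.2 FPKM in the silencer library and 3.28 FPKM in the si-NC library (1.38), on about 420 fragments with the silencer and 125 with si-NC. The gene lies on chromosome 1 from 156193932 to 156212796 (GRCh38, plus strand). Of its 2 annotated coding transcripts 1 was listed, no annotated gene overlaps it, and none of its windows is shared. The aspartate-glutamate carriers of the malate-aspartate shuttle were level: SLC25A13 had 16.4 FPKM in the silencer library and 15.6 FPKM in the si-NC library, and SLC25A12 had 4.97 FPKM with the silencer and 4.95 FPKM with si-NC. The sum for the glutathione carrier SLC25A39 was level too, with 19.1 FPKM with the silencer and 19.7 FPKM with si-NC, although its leading transcript differed between the libraries and its most abundant transcript alone gave a log2 ratio of 0.47. Its paralogue SLC25A40 had 4.08 FPKM in the silencer library and 5.73 FPKM in the si-NC library (-0.40). DBF4, which overlaps it on the opposite strand, had a log2 ratio of -0.70, and its part in the SLC25A40 values was not tested. The ornithine carrier SLC25A15 had 8.03 FPKM with the silencer and 11.1 FPKM with si-NC (-0.43). SLC25A22 for glutamate, SLC25A38 for glycine and SLC25A29 for basic amino acids had log2 ratios from 0.25 to 0.27.

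The mitoferrins, which bring in iron for haem and iron-sulphur clusters, were low. SLC25A28 had 2.70 FPKM in the silencer library and 4.41 FPKM in the si-NC library (-0.55), on about 47 fragments with the silencer and 70 with si-NC, and SLC25A37 had 2.26 FPKM with the silencer and 2.23 FPKM with si-NC. Of the carriers related to uncoupling proteins, SLC25A27 had 13.0 FPKM with the silencer and 13.8 FPKM with si-NC and SLC25A30 had 5.82 FPKM with the silencer and 6.87 FPKM with si-NC. SLC25A46, an outer membrane member linked to mitochondrial fission and lipid transfer, had 13.1 FPKM in the silencer library and 6.60 FPKM in the si-NC library (0.90). SLC25A43 and SLC25A35 have no firmly assigned substrate. SLC25A43 had 3.07 FPKM in the silencer library and 1.72 FPKM in the si-NC library, a log2 ratio of 0.58 with the pseudocount of 1, just short of 1.5-fold, and of 0.80 with a pseudocount of 0.1, past it. By contrast, SLC25A35 had 1.66 FPKM with the silencer and 2.48 FPKM with si-NC (-0.39).

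The 4 listed genes under 1 FPKM in both libraries were SLC25A14, SLC25A18, SLC25A21 and SLC25A45. SLC25A14 had 0.605 FPKM in the silencer library and 0.789 FPKM in the si-NC library. SLC25A45 had 0.528 FPKM in the silencer library, on about 7 fragments, and was listed at 0 in the si-NC library. SLC25A18 had 0.075 FPKM with the silencer and 0.081 FPKM with si-NC, and SLC25A21 was listed at 0 in the silencer library and had 0.033 FPKM in the si-NC library. A further 9 coding symbols of the families had no listed transcript: SLC25A2, SLC25A31, SLC25A34, SLC25A41, SLC25A47, SLC25A48, SLC25A52, SLC25A53 and TOMM20L.

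How reads were divided among transcripts changed some of these values. Of the 61 genes, 23 had a single listed transcript and 38 had several, and in 7 of the 38 the leading transcript differed between the libraries. In SLC25A46 a transcript of 2345 bases had 7.97 FPKM in the silencer library and 0.961 FPKM in the si-NC library, while that of 2385 bases was level at 4.21 FPKM with the silencer and 4.01 FPKM with si-NC. The higher value of the gene thus came from 1 transcript. In SLC25A10 the transcript of 1911 bases had 6.29 FPKM in the silencer library and 0.335 FPKM in the si-NC library, and that of 1946 bases was listed at 0 in the silencer library and had 4.24 FPKM in the si-NC library. The sum over the gene differed by less, with a log2 ratio of 0.36. In TIMM9 the transcript of 1336 bases had 5.46 FPKM in the silencer library and 13.2 FPKM in the si-NC library, and that of 746 bases had 5.58 FPKM with the silencer and 1.86 FPKM with si-NC. Only 33 of the 61 genes had every annotated coding transcript listed.

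**Figure D4:**
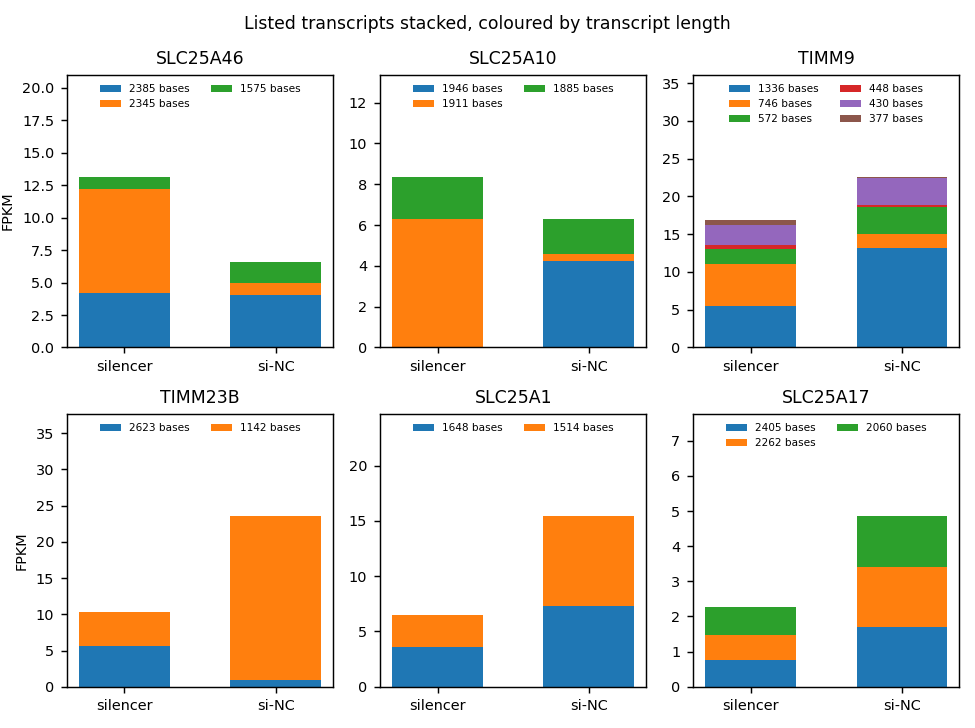
FPKM of each listed transcript (vertical axis, stacked) in the silencer library (left bar) and the si-NC library (right bar) for 6 of the 7 genes whose leading transcript differed between the libraries (SLC25A39 is not drawn); colours stand for transcripts, named by length. In SLC25A46, SLC25A10, TIMM9 and TIMM23B 1 transcript is higher in the silencer library while another is lower or level, and in SLC25A1 and SLC25A17 all transcripts are lower in the silencer library.

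For the 23 genes with a single listed transcript, counting error could be set out without dividing reads among listed transcripts of 1 gene. Division with unlisted transcripts or overlapping genes can still enter and was not tested. This applies to TOMM6 and SLC25A32, which share all or most windows with other genes. On approximate fragments, the exact Clopper-Pearson interval at 95% of the log2 ratio without pseudocount lay above 0 for 6 genes, below 0 for 6 and held 0 for 11. It ran from 1.86 to 2.40 for TOMM6, from 1.34 to 1.93 for SLC25A44, from 0.80 to 1.21 for TOMM22 and from -1.01 to -0.67 for SLC25A32. For SLC25A42, with about 50 fragments with the silencer and 46 with si-NC, it ran from -0.60 to 0.61, so a difference of 1.5-fold in either direction was not detectable at this depth. These intervals cover counting error within each library and not the variation between cultures. Counts of intervals above or below 0 were not made for all genes with 1 listed transcript, so they describe these 23 genes only.

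**Figure D5:**
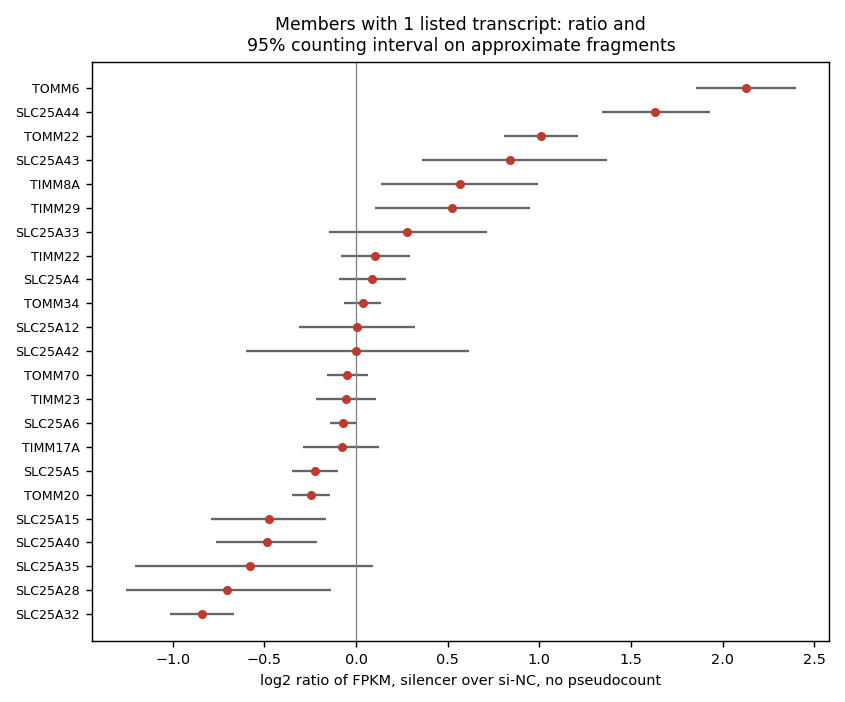
Log2 ratio of FPKM, silencer over si-NC, without pseudocount (horizontal axis, red points) and its 95% counting interval (lines) for the 23 genes with 1 listed transcript. Intervals of TOMM6, SLC25A44, TOMM22, SLC25A43, TIMM8A and TIMM29 lie above 0, and those of SLC25A32, SLC25A28, SLC25A40, SLC25A15, TOMM20 and SLC25A5 below it.

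Other genes of import also lay mostly within 1.5-fold. Of 31 genes for the import motor, processing peptidases, assembly machinery and quality control, 3 were higher and 1 lower at 1.5-fold. That put 12.9% beyond 1.5-fold, beside 18.7% of all genes past the filter. The median log2 ratio of the 31 genes was 0.01. HTRA2, a protease of the intermembrane space, had 6.83 FPKM in the silencer library and 1.31 FPKM in the si-NC library (1.76), and the matrix protease LONP1 had 35.8 FPKM with the silencer and 19.2 FPKM with si-NC (0.87). GFER, the oxidase of the disulphide relay, had 19.6 FPKM in the silencer library and 11.7 FPKM in the si-NC library (0.70). GRPEL2, a nucleotide exchange factor of the motor, had the lowest ratio, with 1.62 FPKM with the silencer and 4.32 FPKM with si-NC (-1.02), followed by the inner membrane peptidase subunit IMMP1L, with 1.54 FPKM with the silencer and 2.57 FPKM with si-NC (-0.49) on about 6 fragments with the silencer and 11 with si-NC. The motor chaperone HSPA9 was level at 158 FPKM in the silencer library and 156 FPKM in the si-NC library.

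Of 22 other mitochondrial transporters past the filter, 3 were higher and 2 lower at 1.5-fold, with a median of -0.09. That put 22.7% beyond 1.5-fold, near the 18.7% of all genes past the filter. SFXN5, a sideroflexin, had 3.13 FPKM in the silencer library and 1.003 FPKM in the si-NC library (1.04), and the ion exchanger LETM1 had 33.7 FPKM with the silencer and 20.4 FPKM with si-NC (0.69). The third was ABCB8, a subunit of a mitochondrial potassium channel, with 4.62 FPKM with the silencer and 2.64 FPKM with si-NC (0.63). UCP2, an uncoupling protein, had 25.3 FPKM in the silencer library and 40.5 FPKM in the si-NC library (-0.66), and the pyruvate carrier subunit MPC2 had 13.5 FPKM with the silencer and 21.4 FPKM with si-NC (-0.62). On fragments per gene, scaled for depth, the log2 ratio was -0.44 for UCP2 and -0.09 for MPC2, so that neither remained 1.5-fold lower.

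Beside like sets, the import and carrier genes had a median of 0.03, the mitochondrial ribosomal protein genes (MRPL and MRPS symbols, 78 genes) 0.09, and the SLC genes other than SLC25A (143 past the filter) -0.08. The share beyond 1.5-fold was 14.8% for the import and carrier genes, beside 18.7% of all genes past the filter. It was 7.69% for the mitochondrial ribosomal protein genes and 28.7% for the other SLC genes. The median level of the other SLC genes was also lower, at 4.55 FPKM in the silencer library and 4.997 FPKM in the si-NC library, where the import and carrier genes had medians of 12.7 FPKM with the silencer and 11.4 FPKM with si-NC. The 13 mRNAs encoded in mitochondrial DNA had a median of -0.78, with all 13 below 0, and made up 6.93% of total FPKM in the silencer library and 12.0% in the si-NC library. With 1 library per group these differences between sets have no test.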

How the data were processed

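Total RNA of MDA-MB-231 cells, 48 h after THAP7-AS1 Smart Silencer or si-NC, was sequenced as 1 library each, per the labels. Cutadapt, HISAT2 2.0.5 and StringTie were used on hg19, per the submitters' processing notes. The deposited values per transcript were read as FPKM from their size, since the header names no unit. The sources used here do not give the annotation release or the strand setting, and overlapping genes on opposite strands could not be told apart.

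Of 39605 transcripts, 99.5% matched GENCODE 29 without version, which is on GRCh38 and was used for symbols, types, lengths, transcript sequences and gene positions. FPKM was summed per gene. The log2 ratio used a pseudocount of 1, and counts used genes with at least 1 FPKM in 1 library. Fragments are approximate: the product of low values and length had its peak at 84.1 in the silencer library and 91.2 in the si-NC library, taken as 1 fragment, and 48.7% and 53.5% of the 76 and 86 values near the peak lay within 5% of it. Fragment totals rest on that peak, and intervals and their precision cover counting error only. The steps were tested on simulated data, drawn as random fragments per transcript with the same peak. The simulation held no reads shared among transcripts or genes and no variation between cultures, so it checks the calculation only. Python 3.11.15, pandas 2.3.3 and scipy 1.17.1 were used.

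Genes named were those of at least 5 FPKM beyond 1.5-fold, and in each role the 2 most abundant and the highest and lowest ratios; other members are given as examples chosen after their values were seen. Of the added lists, the 2 highest and 2 lowest ratios were named, and GFER, HSPA9 and ABCB8 were added after their values were seen. The liver genes ALB and APOA2 were also named after their values were seen. The values of 1 member are not reported here, while counts and medians include it. Members, lists and roles were chosen with earlier results of these data known.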

Additional observations from a re-analysis of the deposited data

How the results depend on the processing

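With 1 library per group, no library could be left out, and depth limits low genes such as SLC25A42, whose counting interval spans 1.5-fold in both directions. No paired analysis was possible because each group has 1 library and the ratios come from no test. Alternatives were a pseudocount of 0.1, no filter, a filter of 5 FPKM, centring on the median of all genes and the most abundant transcript of each gene, and 2 chosen after seeing the data, namely fragments per gene and ratios corrected for GC content and length. The counts of genes beyond 1.5-fold and 2-fold stayed within 1.5 times those reported, except that 3 and not 5 genes were 1.5-fold lower with a filter of 5 FPKM, 4 and not 2 were 2-fold higher with the most abundant transcript, and 1 and not 2 was 2-fold lower on fragments per gene. The filter leaves out SLC25A17 and TOMM40L, the most abundant transcript puts SLC25A10 (2.45) and SLC25A46 (2.19) past 2-fold, and on fragments TIMM23B (-0.43) is no longer past it. The median of all members lay between 0.01 and 0.06 throughout, and that of the SLC25A genes between -0.04 and 0.01. That of the TIMM and TOMM genes lay between 0.09 and 0.11, except at 0.04 after the correction for GC content and length. The 9 genes stayed beyond 1.5-fold in the same direction under the 5 alternatives that change ratios, except TIMM23B on fragments per gene.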

Other observations

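Of the 9 genes beyond 1.5-fold, 3 lie on chromosome 22, which also carries THAP7-AS1: TOMM22, higher in the silencer library, and SLC25A1 and SLC25A17, both lower. These are the 3 members of that chromosome past the filter, as the other, SLC25A18, was under 0.1 FPKM in both libraries. SLC25A1 lies 1.82 Mb from THAP7-AS1 on GRCh38. Of all 11046 genes past the filter 2.16% lie on chromosome 22, and 19.2% of those (46 of 239) were beyond 1.5-fold, where 18.7% of all genes were. The location was looked up after the values were seen, no test was made, and the directions are not shared.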
